A study of Mus musculus with 16 samples.

Results

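Interferon-stimulated genes are the genes that cells switch on after sensing an interferon, and a list of 42 of them was followed through the RNA of fat cells and livers from the same mice. Each member was matched by its symbol, and 41 of the 42 were found among the 23420 genes counted (Rnf213 was not analysed here). The list splits into 10 guanylate-binding proteins (GBPs) and immunity-related GTPases (IRGs), which are large and small GTP-hydrolysing proteins, and 31 other members. The data came from 8 male C57BL/6 mice, with 1 adipocyte library and 1 liver library of polyadenylated RNA from each, 16 libraries in all. Of the mice, 4 were wild-type and 4 carried the label of a Trib1 knockout restricted to adipocytes. Trib1 encodes a pseudokinase scaffold that links target proteins to a ubiquitin ligase. WT-1135, WT-1136, WT-1138, KO-1137 and KO-1139 were 76 days old, and WT-1153, KO-1151 and KO-1152 were 70 days old. No treatment is named, and neither the promoter that drives the recombinase nor the deleted part of Trib1 is given in the sources used here. Adipocytes were freed from subcutaneous fat by collagenase, whereas liver RNA came from whole homogenised organ. Groups are given below by their labels, WT for wild-type and KO for knockout-labelled, and values in sentences follow the order WT-1135, WT-1136, WT-1138, WT-1153 and KO-1137, KO-1139, KO-1151, KO-1152.

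Type I interferons act through the receptor chains IFNAR1 and IFNAR2 and the kinases JAK1 and TYK2, which activate a complex that holds STAT2 and IRF9. That complex binds a DNA element called the ISRE (interferon-stimulated response element) in front of its target genes. Interferon gamma acts through other receptor chains and on another element, the GAS (gamma-activated site), and many GBP and IRG genes answer to both routes. Low levels of many of these genes are kept up in healthy tissue without infection.

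Total counts were 28560887 to 53716669 per library, and 15279 to 16747 genes had at least 1 count. The 8 adipocyte marker genes summed to between 22288 and 33284 CPM (the usual depth-scaled count, with TMM factors) in every adipocyte library, and the 8 hepatocyte markers, led by Alb, to between 19.3 and 121 CPM there. In liver libraries the hepatocyte markers summed to at least 95525 CPM. Trib1 itself was at 751, 924, 1225 and 1292 CPM in wild-type adipocytes and at 1071, 1273, 1408 and 1344 CPM in knockout-labelled ones. Those groups overlapped, and the log2 difference of 0.28 ± 0.177 (SE) did not pass edgeR's quasi-likelihood test (adjusted p = 0.241). Counts summed over a whole gene do not check a deletion of unknown extent, so every direction given for genotype is that of the labels. Every pair of libraries within a group was further apart than sampling noise (lowest chi-square over its degrees of freedom 32.1), and all 16 were used.

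The DNA in front of the members was searched for both elements, because DNA sequence is a feature that the RNA counts did not enter. RefSeq promoter windows on GRCm38.p6, each 250 bases before and 50 after an annotated start, were available for 30 of the 41 members. The ISRE was searched as GAAA, any 2 bases and GAAA, and the GAS as TTCNNNGAA, where N is any base, both on either strand. ISRE letters were found for 18 of 30 members (60.0%) and for 1079 of all 27025 genes with a window (3.99%). They were found for 7 of 7 GBP and IRG members with a window and for 11 of 23 others (47.8%). GAS letters were found for 9 of 30 members (30.0%) against 9.55% of all genes, with 4 of 7 GBP and IRG members (57.1%) and 5 of 23 others (21.7%). Of 27 ISRE matches in the members, 24 began before the annotated start, and 23 of these began within 200 bases of it. The list holds genes that answer to interferon, so these shares partly follow from its choice and bear on no difference between groups. A match of letters is not a measured binding site. The 6 stretches shown lie in front of genes that were lower in knockout-labelled adipocytes, 3 from the antiviral effectors and 3 from the GTPases. They are written 5′ to 3′ on the gene's own strand with ISRE letters in capitals, which read TTTC, any 2 bases and TTTC where the element is on the other strand.
Ifit1: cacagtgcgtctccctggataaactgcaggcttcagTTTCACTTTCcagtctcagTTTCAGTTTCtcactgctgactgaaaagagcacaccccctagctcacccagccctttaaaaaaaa
Ifit3: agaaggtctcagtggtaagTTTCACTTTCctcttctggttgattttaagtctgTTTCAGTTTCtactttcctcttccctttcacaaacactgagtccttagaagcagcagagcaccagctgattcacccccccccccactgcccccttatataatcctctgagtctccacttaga
Isg15: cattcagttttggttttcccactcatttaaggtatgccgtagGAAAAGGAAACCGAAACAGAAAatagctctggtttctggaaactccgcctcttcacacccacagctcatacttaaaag
Gbp5: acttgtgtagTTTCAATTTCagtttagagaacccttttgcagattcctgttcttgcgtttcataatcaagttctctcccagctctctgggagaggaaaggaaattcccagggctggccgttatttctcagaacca
Igtp: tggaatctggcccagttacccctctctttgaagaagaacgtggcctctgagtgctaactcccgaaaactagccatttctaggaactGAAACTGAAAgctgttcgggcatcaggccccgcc
Irgm2: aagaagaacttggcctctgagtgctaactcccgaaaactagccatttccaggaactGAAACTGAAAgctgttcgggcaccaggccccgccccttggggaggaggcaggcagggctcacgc
The Ifit1 stretch is chr19:34640749-34640868 on the plus strand, with elements beginning 104 and 85 bases before the start. The Ifit3 stretch is chr19:34583354-34583528 on the plus strand, with elements 156 and 122 bases before the start. The Isg15 stretch is chr4:156200819-156200938 on the minus strand, where 3 overlapping matches begin 78, 72 and 66 bases before the start. The Gbp5 stretch is chr3:142496759-142496893 on the plus strand, with the ISRE 165 bases and a GAS match 52 bases before the start. The Igtp stretch is chr11:58199436-58199555 and the Irgm2 stretch chr11:58214857-58214976, both on the plus strand. Igtp has its ISRE 34 bases and its GAS match 45 bases before the start, and Irgm2 has them 64 and 75 bases before. The windows of Igtp and Irgm2 shared a run of 61 identical bases that begins 11 bases before the start of Igtp and 41 bases before that of Irgm2, and 184 of 270 bases (68.1%) were identical when shifted by 30 bases.

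In adipocytes, the interferon-stimulated genes were lower in the knockout-labelled mice, and the GBPs and IRGs moved with the rest. Of the 41 members, 34 fell and none rose in edgeR's quasi-likelihood test (adjusted p under 0.05 over 13795 genes), where 17.1% of all genes fell and 18% rose. All 41 members had a difference below 0, while 48.9% of all genes tested lay above 0. The median log2 difference of the members was -1.09, against -0.01 over all genes. The 34 that fell were 1.42 to 8.72 times lower, with a median of 2.34 times, and 22 were at least 2 times lower, as were 10.1% of all genes. For 30 members every knockout-labelled library lay below every wild-type library, which 15.2% of all genes did. All 10 GBP and IRG genes fell (median -1.13), and 24 of the 31 others did (median of all 31, -1.06). All of the 41 passed the filter on low counts. Because these are mixtures of cells, fewer cells of a type and less RNA per cell cannot be told apart.

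**Figure D1:**
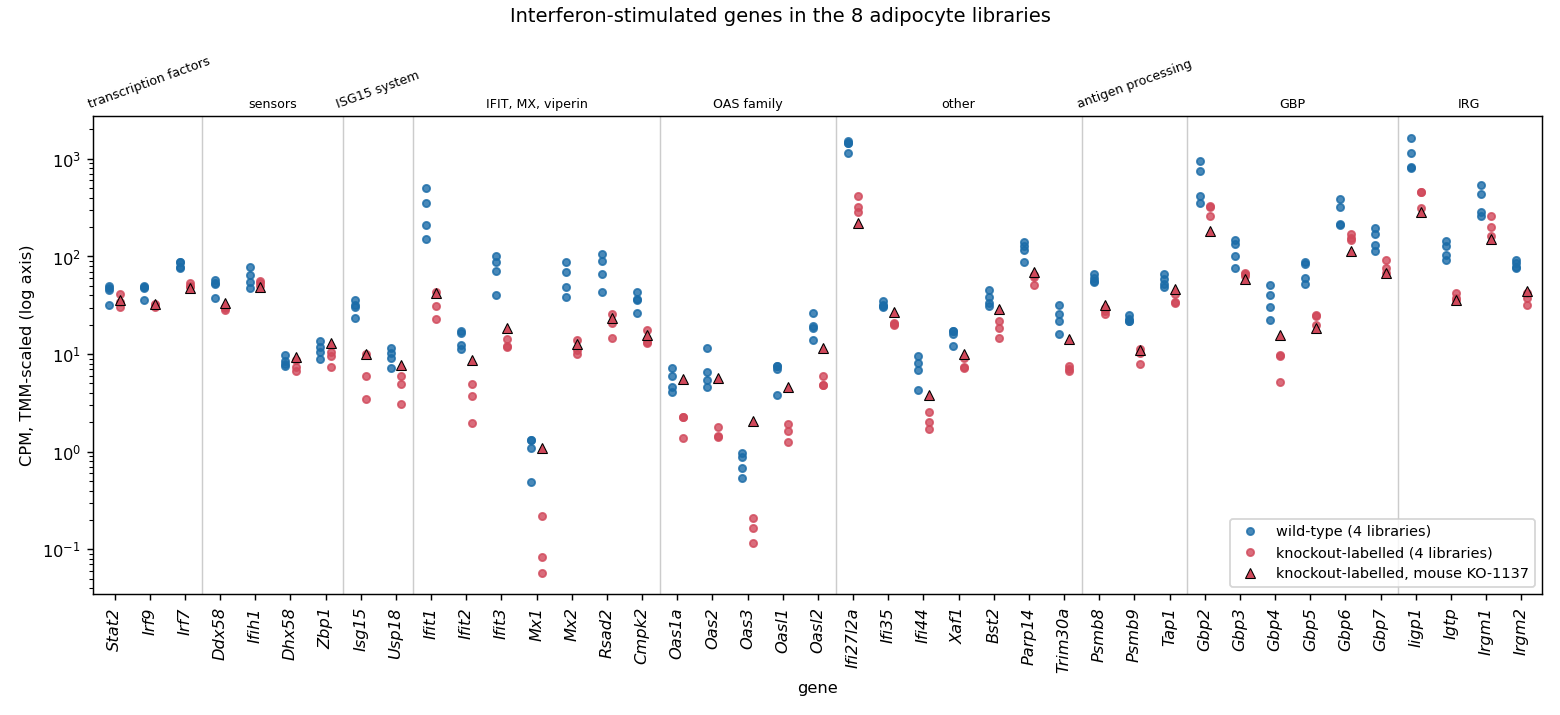
CPM (TMM-scaled, log axis) of the 41 genes in each of the 8 adipocyte libraries, with genes grouped by role; each point is 1 library, and triangles are KO-1137. For 30 genes all knockout-labelled points lie below all wild-type points, and the triangles of Mx1, Oas2 and Oas3 stand well above the other 3 knockout-labelled points.

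The IFIT, MX and viperin genes, families known for proteins that hold viral RNA or block viral replication, gave the widest differences. Only RNA was measured, so whether these mice make working proteins from them is not known here. Ifit1, which binds the ends of foreign RNA, was at 212, 150, 351 and 502 CPM in wild-type adipocytes. It was at 42, 30.8, 22.9 and 43.6 CPM in knockout-labelled adipocytes. The lowest wild-type library was thus more than 3 times above the highest knockout-labelled one, and the log2 difference was -3.12 ± 0.38 (SE, edgeR adjusted p = 0.000490). Ifit3, its partner, was at 70.2, 40.2, 87.9 and 101 CPM against 18.5, 11.9, 12.1 and 14.3 CPM, a log2 difference of -2.39 ± 0.27. Mx2, a dynamin-like GTPase, was at 49.2, 38.5, 69.8 and 87.7 CPM against 12.7, 11.1, 10.1 and 13.8 CPM, a log2 difference of -2.36 ± 0.24. Neither gene's groups overlapped. Rsad2, which encodes viperin, differed by -1.85 ± 0.27, and its neighbour Cmpk2, a mitochondrial nucleotide kinase, by -1.27 ± 0.16. Ifit2 was at 11.4 to 17.2 CPM in wild-type and at 1.96 to 8.62 CPM in knockout-labelled adipocytes, again with no overlap. Mx1 was the 1 member of the group that did not pass. It stood at 1.10, 0.484, 1.32 and 1.32 CPM against 1.10, 0.0829, 0.218 and 0.0577 CPM, so that KO-1137 alone lay among the wild-type libraries.

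Isg15, a ubiquitin-like protein that is attached to other proteins, was at 31.5, 23.5, 35.9 and 30.3 CPM in wild-type adipocytes. In knockout-labelled adipocytes it was at 10.01, 5.91, 3.49 and 10.04 CPM. Its groups did not overlap, and its log2 difference was -2.04 ± 0.30. Usp18, the protease that removes ISG15, fell less (log2 difference -0.82 ± 0.26, edgeR adjusted p = 0.0361), and KO-1137 at 7.70 CPM lay above the lowest wild-type library at 7.14 CPM.

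Among the other effectors, Ifi27l2a encodes a small membrane protein. It was at 1447, 1520, 1154 and 1449 CPM in wild-type and at 219, 285, 318 and 413 CPM in knockout-labelled adipocytes. No library overlapped, and the log2 difference was -2.17 ± 0.19 (edgeR adjusted p = 9.86e-05). The remaining 6 of this group also fell without overlap. They were Ifi44 (-1.51 ± 0.31), Trim30a (-1.43 ± 0.28), Parp14 (-0.93 ± 0.15), Xaf1 (-0.91 ± 0.16), Bst2 (-0.82 ± 0.20) and Ifi35 (-0.55 ± 0.11), all as log2 differences. Bst2 encodes tetherin, which holds budding virus at the cell surface, and Parp14 an ADP-ribosyltransferase.

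The oligoadenylate synthetases make a second messenger that activates RNase L, and their relatives Oasl1 and Oasl2 do not all share that activity. Of these 5 genes, Oas2, Oasl1 and Oasl2 fell, and Oas1a and Oas3 did not pass. Oas2 was at 11.6, 5.40, 6.62 and 4.60 CPM against 5.68, 1.45, 1.77 and 1.41 CPM. Oas3 was at 0.967, 0.678, 0.879 and 0.536 CPM against 2.06, 0.207, 0.164 and 0.115 CPM. In both genes 3 knockout-labelled libraries lay below every wild-type library, and KO-1137 lay apart from them. Oasl2 fell without overlap, from 14.0 to 26.2 CPM in wild-type to 4.80 to 11.5 CPM in knockout-labelled adipocytes (log2 difference -1.53 ± 0.30).

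Of the 3 transcription factors 2 fell (median log2 difference of all 3, -0.51), and of the 4 sensors 1 did (median of all 4, -0.19). Irf7, the factor that amplifies type I interferon production, was at 78.1, 76.2, 88.3 and 87.7 CPM in wild-type and at 47.8, 49.5, 48.8 and 53.2 CPM in knockout-labelled adipocytes. The groups were tight and did not overlap, with a log2 difference of -0.73 ± 0.08 (edgeR adjusted p = 0.000223). Irf9, the DNA-binding part of the ISRE complex, fell by 0.51 on the log2 scale (SE 0.11), also without overlap. Stat2 was at 32.1 to 49.4 CPM against 30.3 to 41.0 CPM and did not pass (log2 difference -0.30 ± 0.14, edgeR adjusted p = 0.125). Of the 4 sensors of foreign nucleic acid, Ddx58, which encodes RIG-I, fell (-0.73 ± 0.13), from 37.4 to 57.9 CPM to 28.0 to 33.4 CPM. Ifih1 (MDA5), Dhx58 (LGP2) and Zbp1 did not pass, with log2 differences of -0.24 ± 0.14, -0.06 ± 0.14 and -0.14 ± 0.19, and in all 3 the groups overlapped.

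The members that prepare peptides for MHC class I all fell. Psmb8, a catalytic subunit of the immunoproteasome, was at 65.6, 60.4, 55.4 and 56.5 CPM against 31.5, 27.4, 25.8 and 29.6 CPM. Its log2 difference of -1.06 ± 0.09 had the smallest adjusted p of the 41 (8.02e-05, edgeR). Psmb9, a second such subunit, fell from 21.8 to 25.4 CPM to 7.91 to 11.3 CPM (-1.19 ± 0.12), and Tap1, a peptide transporter subunit, from 48.9 to 65.5 CPM to 33.4 to 46.5 CPM (-0.53 ± 0.13). None of these groups overlapped. Psmb9 and Tap1 share 212 bases on opposite strands in GENCODE M21, so reads there cannot be told apart if strand was not used in counting.

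The GBPs gather on the membranes of intracellular microbes. Gbp2, Gbp3, Gbp5 and Gbp7 lie together on chromosome 3, and Gbp4 and Gbp6 on chromosome 5. Gbp2 was the most abundant, at 354, 420, 742 and 940 CPM in wild-type and 181, 260, 321 and 328 CPM in knockout-labelled adipocytes. The wild-type libraries of Gbp2 spread over more than 2-fold, but none fell to the knockout-labelled values (log2 difference -1.17 ± 0.31, edgeR adjusted p = 0.0177). Gbp5 was at 60.0, 52.8, 84.3 and 87.7 CPM against 18.6, 19.8, 25.0 and 24.4 CPM (-1.70 ± 0.18). Gbp4 showed the widest difference, at 51.4, 30.5, 40.8 and 22.2 CPM against 15.8, 9.75, 5.18 and 9.66 CPM (-1.84 ± 0.34). Among wild-type libraries Gbp4 was highest in WT-1135 and lowest in WT-1153, whereas Gbp2 and Gbp5 were highest in WT-1153. Gbp7 (-1.01 ± 0.18), Gbp6 (-0.95 ± 0.21) and Gbp3 (-0.85 ± 0.18) also fell without overlap.

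The IRGs attack or regulate the vacuoles that hold microbes. Iigp1, an effector IRG, was at 829, 807, 1143 and 1636 CPM in wild-type and at 284, 316, 462 and 458 CPM in knockout-labelled adipocytes (-1.54 ± 0.26). Igtp, a regulatory IRG, was at 103, 91.6, 129 and 144 CPM against 36.0, 35.6, 37.9 and 42.3 CPM (-1.62 ± 0.14, edgeR adjusted p = 9.70e-05). Both genes' groups stood apart, and the knockout-labelled values of Igtp lay within 7 CPM of each other. Irgm2 fell by 1.09 on the log2 scale (SE 0.11) without overlap. Irgm1 fell by 0.97 (SE 0.25), with KO-1152 at 261 CPM just above WT-1136 at 257 CPM. In GENCODE M21 the gene records of Igtp and Irgm2 share 7974 bases on 1 strand. How far their exons overlap was not examined, so the split of reads between these neighbours is uncertain. Reads may also be shared within the GBP, Oas and Ifit families.

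The libraries did not order the GBPs and IRGs as they ordered the other members. Each library was described by the median, over genes, of its log2 CPM minus the wild-type mean. For the GBPs and IRGs it was -1.26, -1.26, -0.99 and -0.97 in the 4 knockout-labelled libraries. For the other members it was -0.63, -1.40, -1.53 and -1.01. KO-1137 held the highest knockout-labelled value for 21 of the 31 other members but for 2 of the 10 GTPases, and the lowest for 7 of those 10. In all, 10 of the 41 members in KO-1137 reached the lowest wild-type library, against 3 in each of the other 3. Without KO-1137, 37 members fell (19.6% of all genes fell), the 3 added being Mx1 (log2 difference -3.12 ± 0.57), Oas1a (-1.48 ± 0.27) and Oas3 (-2.19 ± 0.41). Among wild-type libraries, WT-1136 held the lowest value for 32 of 41 members and WT-1153 the highest for 19. Whether the 2 sets of genes differ in these orders was not tested.

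Several marker lists for cells other than adipocytes also separated the genotype groups, and not all in the same direction. The summed level of 10 endothelial markers was 781 to 2205 CPM in wild-type and 214 to 484 CPM in knockout-labelled adipocytes, and 10 of 10 fell in edgeR's test. That of 10 fibroblast and progenitor markers was 1543 to 1654 CPM against 691 to 1247 CPM (9 of 10 fell), and that of 8 mural cell markers 271 to 410 CPM against 109 to 179 CPM (7 of 8 fell). The macrophage markers summed to 132 to 329 CPM against 60.0 to 368 CPM, and 0 of 10 passed the adjusted threshold or an unadjusted p of 0.05. The highest macrophage sum of all 8 libraries, 368 CPM, was that of KO-1137, and the other knockout-labelled libraries were at 60.0 to 166 CPM. Lymphocyte markers summed to 14.7 to 35.7 CPM against 7.42 to 23.2 CPM (3 of 10 tested fell), and dendritic cell markers to 12.3 to 29.4 CPM against 7.44 to 10.9 CPM (2 of 8 fell). The 5 Kupffer cell markers summed to 4.86 to 8.47 CPM against 4.25 to 8.36 CPM (0 of 3 tested passed), with Clec4f among them at 0 in every adipocyte library. Granulocyte markers went the other way, at 4.10 to 7.21 CPM against 7.96 to 10.6 CPM (1 of 4 tested rose). Hepatocyte markers summed to 45.2 to 121 CPM against 19.3 to 31.9 CPM (1 of 2 tested fell). Skeletal muscle markers summed to 12.2 to 32.9 CPM in wild-type and to less in every knockout-labelled library (1 of 3 tested fell). Among wild-type libraries the endothelial sum was highest in WT-1135 (2205 CPM), which held the highest wild-type value for 15 of 41 members and the lowest for 1. It was lowest in WT-1153 (781 CPM), which held the highest for 19 and the lowest for 5. Gbp4, Oas2, Oasl2, Trim30a and Bst2 were higher in WT-1135 than in WT-1153, and Ifit1, Gbp2 and Iigp1 were lower.

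**Figure D2:**
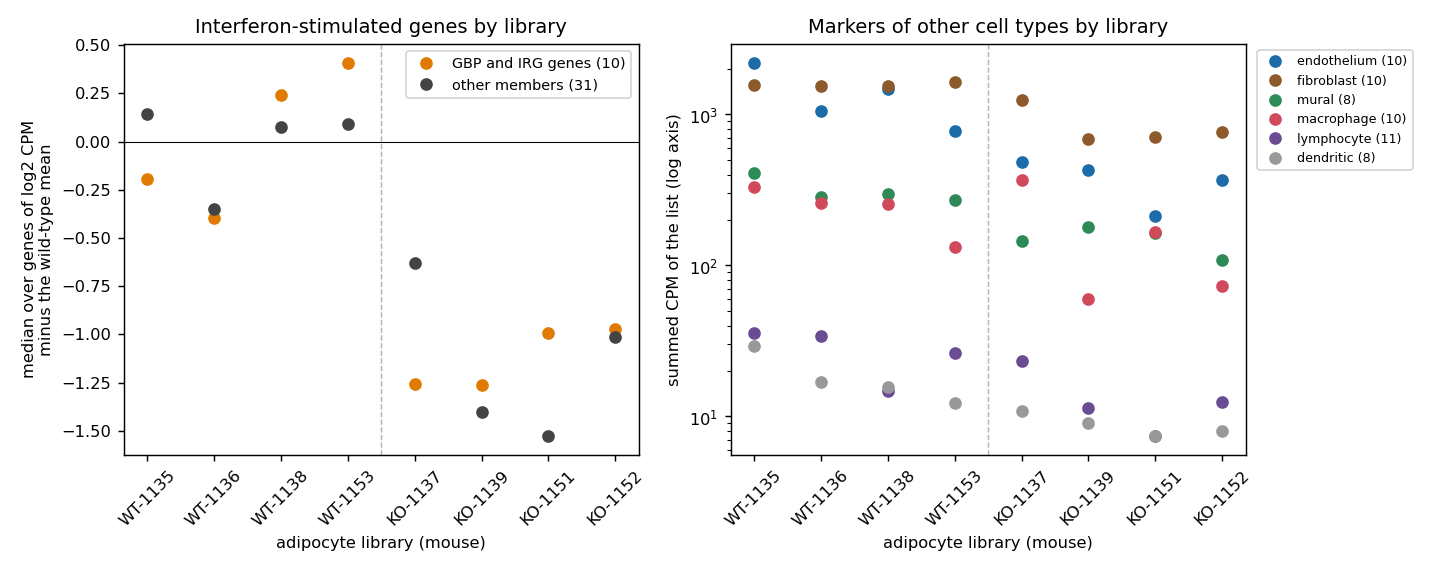
Left, the median over genes of log2 CPM minus the wild-type mean for the 10 GBP and IRG genes and the 31 other members in each adipocyte library; right, the summed CPM of marker lists for other cell types (log axis) in the same libraries, with a dashed line between wild-type and knockout-labelled mice. The other members sit higher in KO-1137 (-0.63) than the GTPases do (-1.26), and its macrophage sum of 368 CPM is the highest of the 8.

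The adipocyte fit was repeated with a marker score as a covariate. The stromal score, a centred mean of the log2 CPM of endothelial, fibroblast and mural markers, had a mean of 0.79 in wild-type and -0.79 in knockout-labelled libraries, so score and label overlap, and the median SE of the members rose from 0.199 to 0.298. With it, 15 of the 41 members fell in edgeR's test, where 1.46% of all genes did. These were 8 of 10 GBP and IRG genes and 7 of 31 others. The median log2 difference was -1.83 over all 10 and -0.57 over all 31, passed or not. The differences of Gbp2 (-2.55 ± 0.35), Iigp1 (-2.62 ± 0.28), Gbp5 (-2.32 ± 0.27) and Irgm1 (-1.87 ± 0.37) were wider than without it. The 7 others were Ifit1 (-3.52 ± 0.62), Mx2 (-2.76 ± 0.41), Ifi27l2a (-2.59 ± 0.35), Ifit3 (-2.40 ± 0.47), Cmpk2 (-1.33 ± 0.30), Irf7 (-0.86 ± 0.15) and Psmb8 (-0.77 ± 0.15). Gbp4 went from -1.84 to -0.17 ± 0.24 and Ifit2 from -1.57 to -0.30 ± 0.48, and neither passed. With a score of macrophage, lymphocyte and dendritic cell markers in its place, 26 members fell (5.57% of all genes), including all 10 GTPases. That score also went with the label, at a correlation of -0.675. Whether the marker levels account for any member's difference was not tested.

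**Figure D3:**
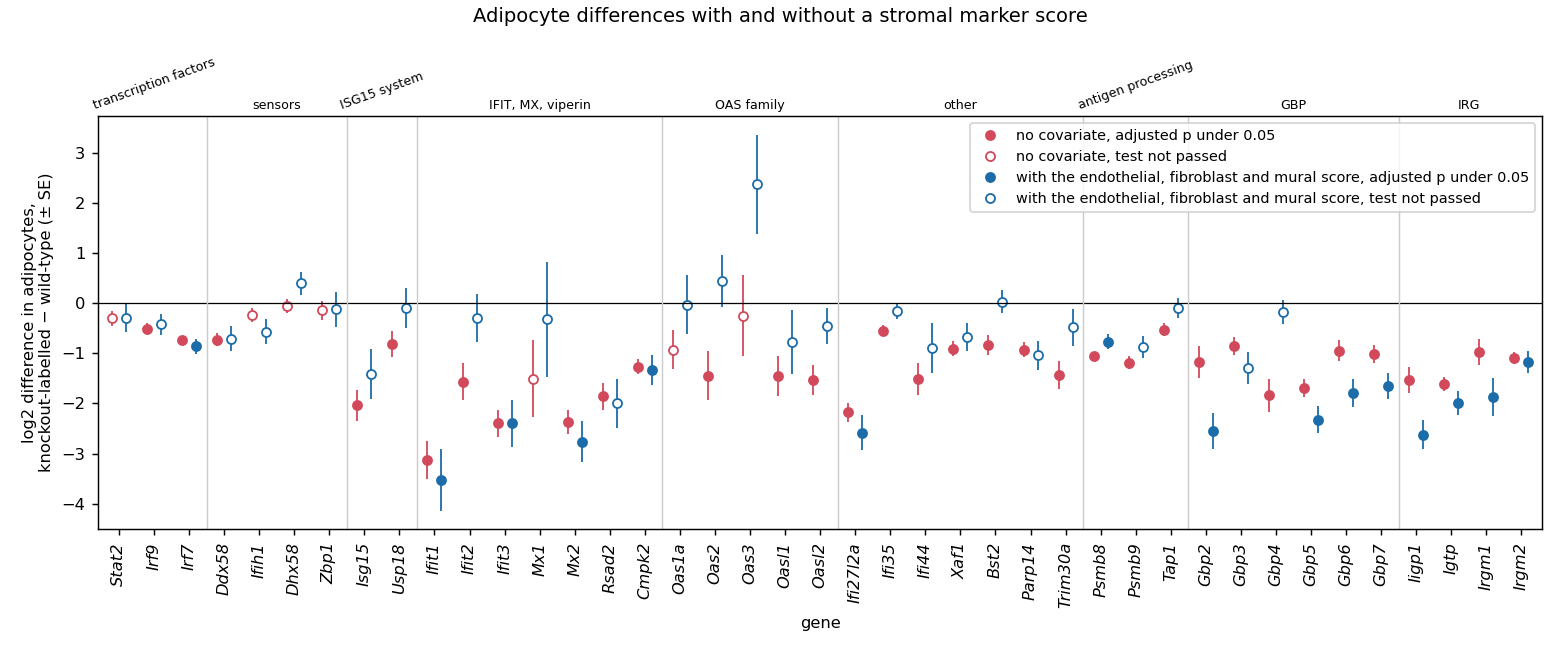
Log2 difference (knockout-labelled minus wild-type, ± SE) of each member in adipocytes without a covariate and with the stromal marker score as a covariate; filled points passed edgeR's adjusted p of 0.05. With the score, 8 of 10 GBP and IRG genes and 7 of 31 others keep filled points, and Oas2, Oas3, Dhx58 and Bst2 lie above 0 without passing.

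Age was not balanced over the groups, with 1 wild-type and 2 knockout-labelled mice at 70 days and 3 and 2 at 76 days. At 70 days 41 of 41 adipocyte differences lay below 0 with a median of -1.35, and at 76 days 40 of 41 with a median of -1.09. Among mice of 76 days alone, 18 members passed edgeR's test (6.26% of all genes fell), where 3 wild-type and 2 knockout-labelled libraries enter. Among mice of 70 days 33 did (6.22%), but there 1 wild-type library is set against 2, it is assumed to vary like them, and that pair alone gives the spread, so this count is no check on age. With age as a covariate 34 members fell.

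Wider genes of the interferon pathway were followed from a list of 106 symbols outside the members, 95 of which were tested in adipocytes. Of these 95, 51 fell and 4 rose, with a median log2 difference of -0.49, where 17.1% of all genes fell and 18% rose. A call in either direction was made for 57.9% of the 95 and for 35.2% of all genes. The ligands were close to silent. The 4 interferon alpha genes followed and both interferon lambda genes had 0 counts in all 16 libraries, where the 3 counts that a 0 allows are 0.0558 to 0.105 CPM, by counting error alone. Ifnb1 had 0 counts in wild-type and 2 in knockout-labelled adipocytes, and Ifng 22 and 10 summed over 4 libraries each. None of the 10 ligands passed the filter. Of 9 receptor chains and kinases, Ifnar1 (-0.27 ± 0.07), Il10rb (-0.39 ± 0.12), Jak2 (-0.44 ± 0.13) and Ifnlr1 fell, the last from at most 16 counts per library. Ifnar2, both interferon gamma receptor chains, Jak1 and Tyk2 did not pass, so that 44.4% of the 9 passed against 35.2% of all genes.

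Irf1, which also drives GBP and IRG genes, fell from 973 to 1423 CPM to 650 to 916 CPM (-0.60 ± 0.15) and Irf8 fell by 0.46 on the log2 scale (SE 0.12), while Irf2, which competes with IRF1 for its sites, rose by 0.53 (SE 0.15). Over the 9 STAT, IRF and related factors followed outside the members, 33.3% passed, near the 35.2% of all genes. Of the inhibitors, Socs1 (-0.37 ± 0.11) and Pias1 (-0.38 ± 0.12) fell and 7 of 9 did not pass, so that 22.2% passed, below the share of all genes. Of 12 genes that lead to interferon production, 5 fell and 1 rose (50% passed, against 35.2% of all genes). Tmem173, which encodes STING, fell from 16.0 to 28.3 CPM to 5.04 to 9.46 CPM (-1.62 ± 0.26), Trim25 by 1.51 (SE 0.18), Mb21d1 (cGAS) by 1.31 (SE 0.33) and Tlr3 by 1.03 (SE 0.16), while Mavs rose by 0.25 (SE 0.07).

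Of 39 further interferon-stimulated genes 26 fell and Parp9 alone rose, with a median log2 difference of -0.75 (69.2% passed, against 35.2% of all genes). Slfn5 fell from 298 to 493 CPM to 109 to 152 CPM (-1.71 ± 0.18), Ifi47 from 20.9 to 31.2 CPM to 4.04 to 8.36 CPM (-2.26 ± 0.24), Ifit3b by 2.28 (SE 0.25) and Herc6 by 1.29 (SE 0.17). All 9 further GBP and IRG genes that were tested fell, among them Gm4841 (-3.71 ± 0.48), Gm12250 (-2.15 ± 0.24) and Gbp11 (-1.40 ± 0.15). Of 8 further class I genes, Tap2 (-0.65 ± 0.10), Psmb10 (-0.60 ± 0.14) and Tapbp (-0.43 ± 0.09) fell, Psme1 rose by 0.34 (SE 0.09), and B2m, H2-K1 and H2-D1 did not pass. Of these 8, 50% passed in either direction.

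In liver, no member passed the test, and most lay slightly above 0. Of 41 members 0 passed edgeR's adjusted threshold, where 3 of 13288 genes did (0.0226%), and DESeq2 and limma-voom passed 0 members as well. At an unadjusted p under 0.05, edgeR gave 9 of 41 members, against 8.62% of all genes. The difference was above 0 for 35 of 41 members, including all 10 GBP and IRG genes, and for 50% of all genes, with a median log2 difference of 0.20 for the members and 0.00 for all genes. Gbp4 was at 4.85, 4.91, 6.62 and 6.15 CPM in wild-type and at 8.75, 8.01, 6.91 and 8.79 CPM in knockout-labelled liver. Its groups did not overlap, but the log2 difference of 0.52 ± 0.14 had an edgeR adjusted p of 0.390. Oasl2 was at 4.88, 3.62, 5.12 and 5.81 CPM against 7.32, 6.86, 7.16 and 6.57 CPM (0.52 ± 0.15, edgeR adjusted p = 0.423). Gbp5 and Ifit2 were the other 2 of the 4 members whose knockout-labelled livers all lay above the wild-type ones, as 2.36% of all genes did. Stat2 (0.28 ± 0.11) and Irf9 (0.24 ± 0.10) had overlapping groups.

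The direction in liver was not the same at both ages, a difference that was not tested. At 76 days 4 of 41 members lay below 0 with a median of 0.37, and at 70 days 26 of 41 with a median of -0.09. The wild-type liver of 70 days, WT-1153, held the highest of all 8 livers for 7 members, and KO-1139 for 16. Of 92 pathway genes tested in liver 0 passed edgeR's adjusted threshold, as 0.0226% of all genes did. An unadjusted edgeR p under 0.05 was found for 8 of the 92, near the 8.62% of all genes. The 2 with the smallest p were Dtx3l (0.29 ± 0.08, edgeR adjusted p = 0.390), a ubiquitin ligase, and Mov10 (-0.40 ± 0.13, edgeR adjusted p = 0.511), an RNA helicase. The median 95% interval of a member in liver ran from -0.12 to 0.55, taking the median of each bound.

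**Figure D4:**
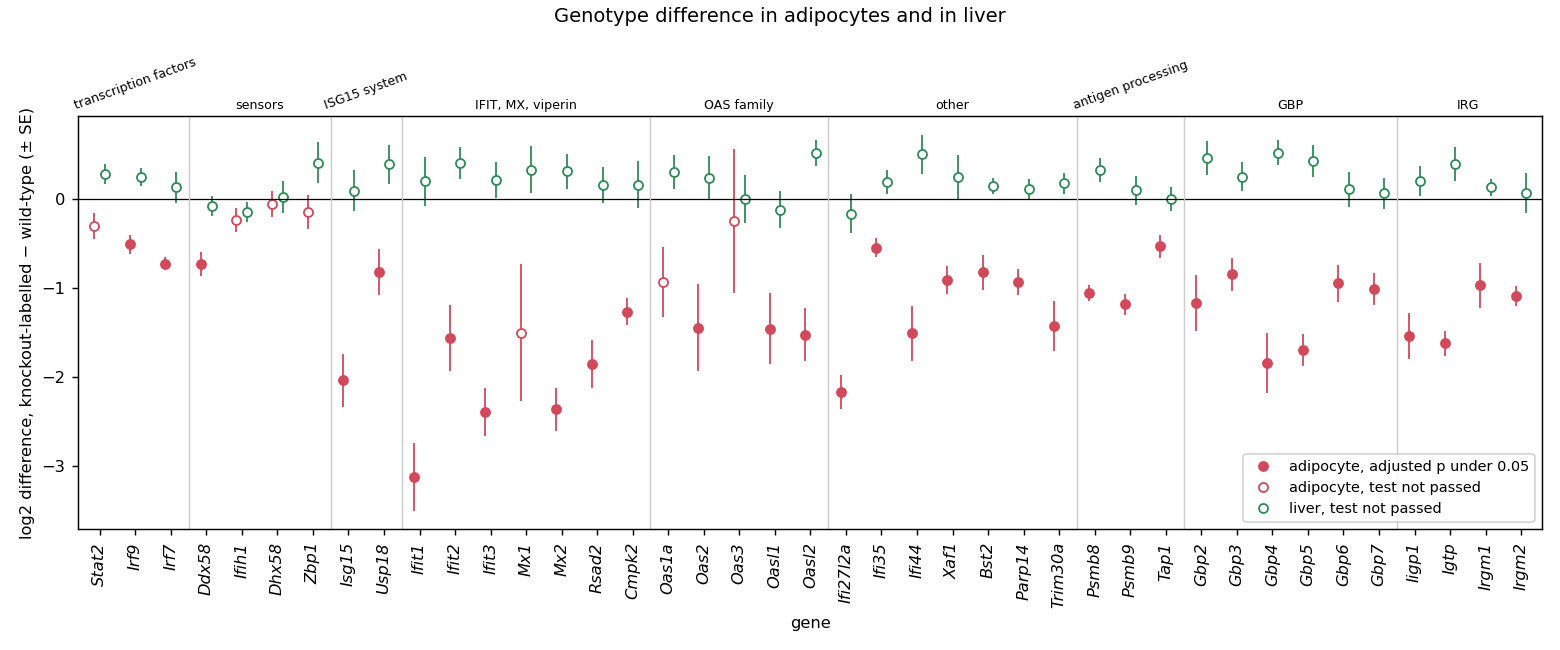
Log2 difference (knockout-labelled minus wild-type, ± SE) of each member in adipocytes and in liver; filled points passed edgeR's adjusted p of 0.05. All 41 adipocyte points lie below 0 and 34 are filled, whereas 35 of 41 liver points lie above 0 and none is filled.

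The genotype differences of the tissues were themselves compared over all 16 libraries. In this interaction test, the adipocyte difference was below the liver difference for 32 of 41 members by edgeR (8.73% of all 14898 genes), and above it for none (10.4% of all genes). All 41 values lay below 0, with a median of -1.26 against -0.01 for all genes. The 32 comprised all 10 GBP and IRG genes (median -1.37) and 22 of 31 others (median of all 31, -1.26). Ifit1 (-3.29 ± 0.49), Mx2 (-2.64 ± 0.32), Ifit3 (-2.57 ± 0.35) and Gbp4 (-2.33 ± 0.39) were the widest. Ifih1, Dhx58, Zbp1, Mx1, Oas1a, Oas2, Oas3, Oasl1 and Tap1 did not pass. With the mouse as a block, which pairs the adipocytes and liver of an animal, 31 passed, where 7.21% of all genes were lower. Stat2 (edgeR adjusted p = 0.0706) and Gbp6 (0.0702) were lost and Oas2 (0.0453) was gained. Without both libraries of KO-1137, 36 passed (10.6% of all genes were lower), Stat2 and Gbp6 being lost and Mx1, Oas1a, Oas2, Oas3, Oasl1 and Tap1 gained.

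Wild-type adipocytes and wild-type livers differed in nearly all members, and the GBPs stood furthest apart. Of 41 members 30 were higher in adipocytes and 8 lower by edgeR, where 40.5% and 37.2% of all 14366 genes were. All 10 GBP and IRG members were higher, with a median log2 difference of 2.42, and the 31 others split into 20 higher and 8 lower with a median of 0.97 (0.06 over all genes). The families did not all go this way. Of 9 further GBP and IRG genes tested outside the members, 6 were higher and 2 lower, with log2 differences from -3.21 to 5.07. The 6 GBPs had a median of 4.25 and the 4 IRGs of 1.29. Gbp2 was at 354 to 940 CPM in adipocytes and at 3.16 to 4.44 CPM in liver when each tissue was scaled by itself, a log2 difference of 6.73 ± 0.36 in the joint fit. Gbp6 (5.21 ± 0.27) and Gbp5 (4.94 ± 0.21) followed, and Ifi27l2a had the widest difference of all members (7.74 ± 0.26). Iigp1, at 276 to 499 CPM in wild-type liver, differed by 0.98 ± 0.26.

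The members lower in adipocytes than in liver were Bst2 (-2.04 ± 0.14), Stat2 (-1.46 ± 0.16), Mx1 (-1.46 ± 0.35), Usp18 (-1.08 ± 0.23), Oas3 (-1.08 ± 0.34), Oasl1 (-0.84 ± 0.23), Dhx58 (-0.74 ± 0.18) and Ifi35 (-0.45 ± 0.14). Irf9, Ifih1 and Oas2 did not pass. This balance depended on the scaling. With library totals alone, which move the median of all genes from 0.06 to 0.71, 32 members were higher and 2, Stat2 (-0.81 ± 0.16) and Bst2 (-1.38 ± 0.16), were lower (58.9% and 21.3% of all genes). The endothelial markers were also higher in wild-type adipocytes (10 of 10), the 5 Kupffer cell markers lower (5 of 5), and macrophage markers summed to 143 to 232 CPM in wild-type liver. Their part in the tissue differences was not tested.

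**Figure D5:**
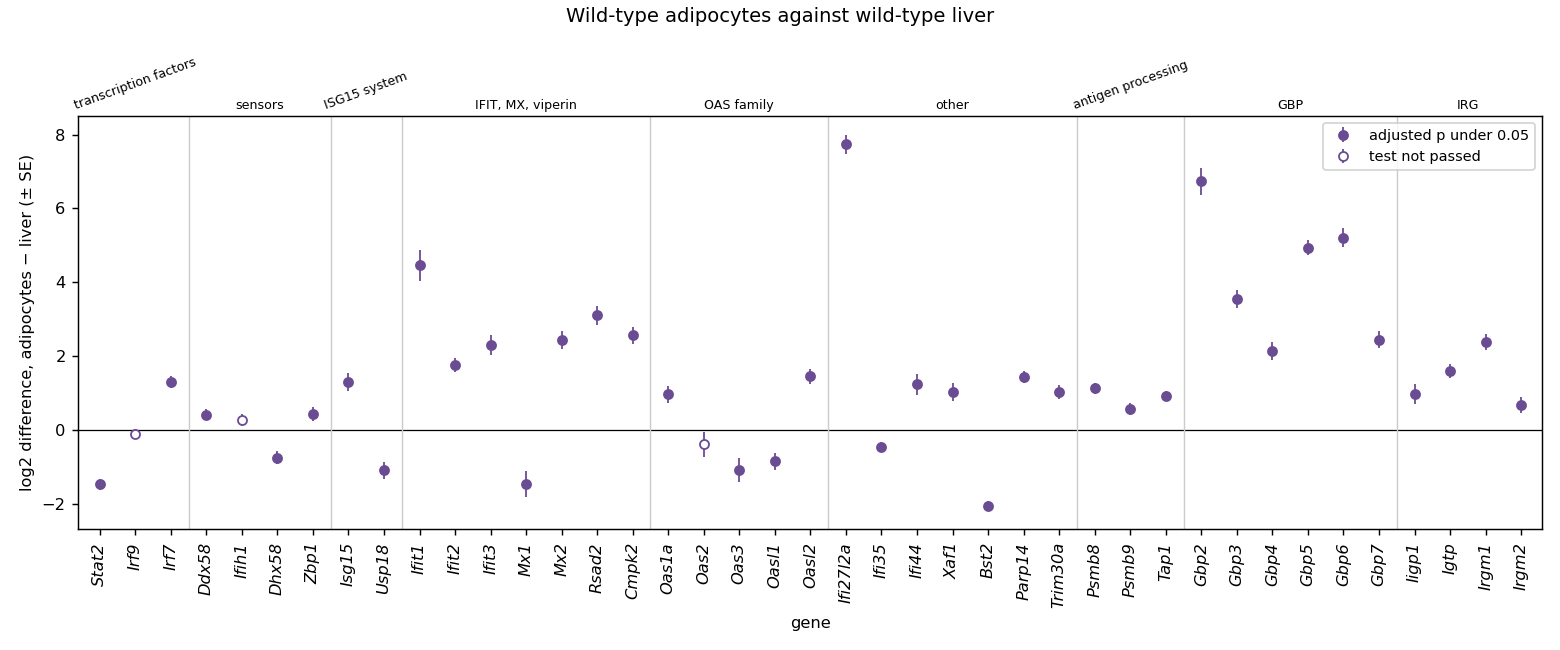
Log2 difference (wild-type adipocytes minus wild-type liver, ± SE) of each member over 4 mice per tissue; filled points passed edgeR's adjusted p of 0.05. All GBP and IRG points lie above 0, from 0.68 for Irgm2 to 6.73 for Gbp2, whereas Bst2, Stat2 and Mx1 lie below.

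Levels were compared between genes after division by the summed exon length of GENCODE M21, as RPKM, which is CPM per kilobase of exon, in the scale of the 8 wild-type libraries. In wild-type adipocytes the order was led by Ifi27l2a (2567 ± 299 RPKM, SD, n = 4), Gbp2 (208 ± 93.6), Iigp1 (162 ± 56.7), Ifit1 (97.7 ± 50.4) and Irgm1 (55.8 ± 19.4). Ifi27l2a stood clear of every other member, while Gbp2, Iigp1 and Ifit1 overlapped their neighbours over the 4 mice. In wild-type liver Bst2 (144 ± 15.7 RPKM) and Iigp1 (81.8 ± 21.2) led, followed by Ifi35 (21.7 ± 4.56) and Stat2 (17.3 ± 2.98), and Gbp2 was at 1.97 ± 0.28 RPKM. Oas3 was the lowest of the 41 in both tissues, at 0.0924 ± 0.0235 RPKM in adipocytes and 0.195 ± 0.0635 RPKM in liver.

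The promoter letters did not separate the members that fell. Of the 18 members with an ISRE match 14 fell in adipocytes (median log2 difference of all 18, -1.05), and of the 12 with a window and no match all 12 fell (median -1.12). Of the 9 with a GAS match 8 fell (median of all 9, -1.06), and of 21 without one 18 did (median of all 21, -1.17). Ifit2, Irf7 and Psmb8 were among those that fell without ISRE letters in the window, which says only that these letters were not in it.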

How the data were processed

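The authors deposited 1 file of raw counts per gene for each of the 16 libraries (mouse adipocytes and liver, 4 mice per group). The submitters' processing notes name featureCounts 1.5.0, STAR 2.5.2b, bcl2fastq 2.17 and the mm10 build. For the annotation, strand setting and multiply mapped reads, the setting is not given in the sources used here. Of counts between 1 and 20, 77.9% were even, so a halved-count fit was run as an alternative.

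Each comparison was fitted over all genes with edgeR 4.0.16 in R 4.3.3 (filterByExpr by group, TMM scaling, quasi-likelihood test, two-sided, Benjamini-Hochberg adjusted p under 0.05), and the fit was tested on simulated data. CPM were TMM-scaled within a tissue, or over the 8 wild-type libraries for tissue values. Alternatives were DESeq2 1.42.0, limma-voom (limma 3.58.1), other scalings and filters, leaving out each mouse, age, marker scores and a mouse block. Adipocytes and liver of 1 number come from 1 mouse per the labels, which pairs them; their deviations from group means correlated at -0.0944 to 0.150 over 12320 genes. p-values measure the spread between these mice only. At the depth of each library, 3 counts correspond to 0.0558 to 0.105 CPM.

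The members and all gene lists were chosen with earlier results of these data known. All members are described by CPM. Fitted changes were followed through the alternatives for every member in adipocytes and between tissues, and in liver and the interaction for members that passed, otherwise the 4 with the smallest p. Pathway genes were followed for the 8 smallest p in adipocytes and 2 in liver, and others named from the pathway lists were chosen for their role after their values were seen. Symbols were matched through RefSeq synonyms where needed.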

Additional observations from a re-analysis of the deposited data

Results flagged for a closer look

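The genotype difference in adipocytes was below that in liver for 32 members by edgeR's interaction test, given here as log2 values (adipocyte minus liver difference). Among effectors they were Ifit1 (-3.29), Mx2 (-2.64), Ifit3 (-2.57), Isg15 (-2.11), Oasl2 (-2.01), Ifi44 (-1.98), Rsad2 (-1.98), Ifi27l2a (-1.98), Ifit2 (-1.94), Trim30a (-1.57), Cmpk2 (-1.39), Usp18 (-1.18), Xaf1 (-1.12), Parp14 (-1.01), Bst2 (-0.95) and Ifi35 (-0.71). Among factors and sensors they were Irf7 (-0.83), Irf9 (-0.73), Ddx58 (-0.62) and Stat2 (-0.56), and among immunoproteasome subunits Psmb8 (-1.36) and Psmb9 (-1.26). The GBPs were Gbp4 (-2.33), Gbp5 (-2.10), Gbp2 (-1.61), Gbp3 (-1.07), Gbp7 (-1.05) and Gbp6 (-1.03), and the IRGs Igtp (-1.99), Iigp1 (-1.72), Irgm2 (-1.14) and Irgm1 (-1.07).

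In 14 of 164 groups of 4 libraries, 1 library lay far from the nearest other by Dixon's criterion, and in 11 of the 14 it was the highest. Chance gives about 1 in 20 for independent, normally distributed values. CPM of these genes need not be either, and the share over all genes was not counted, so no excess is shown. In KO-1137 adipocytes the criterion was met for Mx1 (1.10 CPM, nearest 0.218), Oas2 (5.68, nearest 1.77), Oas3 (2.06, nearest 0.207), Ifi35 (26.8, nearest 21.0) and Trim30a (14.1, nearest 7.61), each the highest knockout-labelled value. That library also held the highest macrophage marker sum, whose part in these values was not tested. In WT-1136 adipocytes Oasl1 was low (3.83 CPM, nearest 7.04). In liver, KO-1139 was high for Ifit1 (16.2 CPM, nearest 9.17), Ifit3 (16.7, nearest 10.5) and Xaf1 (8.15, nearest 5.76). WT-1153 liver was high for Stat2 (103 CPM, nearest 77.3), Mx1 (2.88, nearest 1.76) and Psmb8 (24.8, nearest 16.9). WT-1136 liver was low for Ifit2 (2.26 CPM, nearest 3.05) and WT-1138 liver for Tap1 (15.4, nearest 21.6).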

How the results depend on the processing

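In adipocytes, the count of members that fell (34) became 18 among mice of 76 days and 15 with the stromal score, where the cause was not tested; fewer samples enter the first. Leaving out each mouse gave 31 to 37, and the other alternatives 26 to 36. In liver 0 members passed under all 19 alternatives. Between tissues 34 to 38 passed (35 to 38 leaving out a mouse, 38 with the mouse as a block), and in the interaction 26 to 36 (31 with the block, which changed only the calls of Stat2, Gbp6 and Oas2). In adipocytes 12 members passed in every alternative. Leaving out 1 library lost Irgm1 (KO-1139), Oasl1 (KO-1151 or KO-1152), Usp18 (any but WT-1136 or KO-1137) and Oas2 (any but KO-1137 or WT-1153).

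Adipocyte log2 differences that turned positive, none of them called, were Dhx58 (0.00239 without WT-1135, 0.0279 without KO-1152, 0.000148 with age, 0.0836 at 76 days, 0.40 with the stromal and 0.12 with the immune score; -0.13 to 0.0279 over all mice left out), Oas3 (0.06 without KO-1139, 0.07 without KO-1151, 0.0903 without KO-1152, 0.43 at 76 days, 2.37 and 0.69 with the scores; -2.19 to 0.0903 over all mice left out), Oas2 (0.45) and Bst2 (0.0306) with the stromal score, and Zbp1 (0.0368) with the immune score. In liver Stat2 was -0.0099 at 70 days. Between tissues, library totals turned Irf9 (0.56, edgeR adjusted p = 0.00184), Oas2 (0.29) and Ifi35 (0.20).

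Over all genes, 4849 passed in adipocytes, against 1730 at 76 days, 1595 at 70 days (1 wild-type library against 2), 447 with the stromal and 1783 with the immune score. In liver 3 passed, against 104 by DESeq2, 5 without a filter, 1 without KO-1137, WT-1138 or KO-1139, and 0 within either age. In the interaction 2845 passed, against 1780, 1798 and 1758 without WT-1135, KO-1139 and KO-1151. With library totals, higher calls went from 51.3% to 24.9% in adipocytes (2487 higher and 2362 lower, then 1294 and 3897), from 52.1% to 73.4% between tissues and from 54.3% to 23.4% in the interaction, and the median of all genes moved to -0.20, 0.71 and -0.24. Depth limits Mx1 and Oas3 most, which were near 1 CPM or below in most adipocyte libraries.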
